A study of Mus musculus with 18 samples.

Results

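Cadherins and protocadherins, the calcium-dependent adhesion proteins of the cell surface, were read on microarrays of sorted, differentiating mouse embryonic stem cells. The set holds every gene of the deposited table whose symbol, in any letter case, is CDH plus a number or begins with PCDH. This gave 88 of 31441 genes, and 39 of them were bright enough to be tested, among 13305 genes tested in all. The 88 comprised 5 type I classical cadherins, 12 type II classical cadherins, 4 other cadherins, 12 non-clustered protocadherins, and 13, 22 and 20 protocadherins of the alpha, beta and gamma clusters.

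The cells came from 3 lines of strain J1, and each line carried a fluorescent reporter on a bacterial artificial chromosome (BAC). The reporters were Hes5::GFP, for a repressor that Notch induces in neural progenitors, Nurr1::GFP, for a nuclear receptor of newly formed dopamine neurons, and Pitx3::YFP, for a homeobox factor of midbrain dopamine neurons. Differentiation aimed at a midbrain dopamine phenotype, and fluorescence sorting took place at day 14 to 15. The 6 groups of 3 arrays were therefore Hes5::GFP positive and negative cells, Nurr1::GFP positive and negative cells, and Pitx3::YFP positive and negative cells. All groups shared the strain, the differentiation and a BAC reporter, and no line without a reporter was measured. A negative fraction holds every cell that did not fluoresce, so it is not a defined cell type. For Hes5 negative replicate 2 the labels conflict: the source name reads as a positive sample, the title and genotype as a negative one. The array counts as negative here, and results that rest on it are also given without it.

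Classical cadherins join cells by binding the same cadherin on a neighbour, and their tails hold catenins that connect to actin. E-cadherin (Cdh1) marks embryonic stem cells and epithelia, while N-cadherin (Cdh2) replaces it in the neural plate. Protocadherins lack the catenin-binding tail. The clustered ones lie in tandem arrays, as variable first exons in the alpha and gamma clusters, each with its own promoter. A neuron switches on a few of them, and this gives neurons surface identities used in self-avoidance and synapse formation.

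Levels are normalized log2 intensities, and a difference of 1 is a doubling. A probe counted as above background on an array when its detection p-value was under 0.01, and a gene was tested when it did so on at least 3 arrays. Differences are log2 differences with their standard error (SE), and a gene was called at a limma adjusted p under 0.05 over all 13305 genes. Arrays of a line with the same replicate number deviated together, so a paired fit with the replicate number as a block is given where it changes a call. The labels do not say whether replicates came from separate differentiations, so the p-values measure only the spread between these arrays. The arrays had median probe intensities of 40.6 to 60.2, and 33.5% to 37.4% of probes were above background. The 5 neuron markers tested of 8 listed had a median level of 11.75 to 12.59 in Pitx3 positive cells and 12.03 to 12.26 in Nurr1 positive cells, against 9.59 to 11.36 over the 3 negative fractions. In sorted bulk cells, fewer cells of a type and less RNA per cell cannot be told apart.

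Of the 39 tested genes, 15 were above background on all 18 arrays and 12 on 3 to 8. They were 4 type I cadherins (Cdh1, Cdh2, Cdh3, Cdh4), 3 type II cadherins (Cdh6, Cdh11, Cdh22), Cdh13, 7 non-clustered protocadherins (Pcdh7, Pcdh8, Pcdh9, Pcdh10, Pcdh17, Pcdh20, Pcdh21), 4 genes of the alpha cluster, 14 of the beta cluster and 6 of the gamma cluster. Of the 49 that were not tested, 42 had no probe above background on any array. Cdh5, the endothelial cadherin, was above background on 2 arrays and not tested, and 2 of 8 listed endothelial markers were bright enough to test. Cdh8 could not be tied to a probe. Pcdh21 is now named Cdhr1, and the separate rows for Pcdh11x and Pcdhx, an older name of the same gene, were above background on no array. Since a gene was tested for being bright in some arrays, the counts below describe these 39 genes and not the family.

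**Figure D1:**
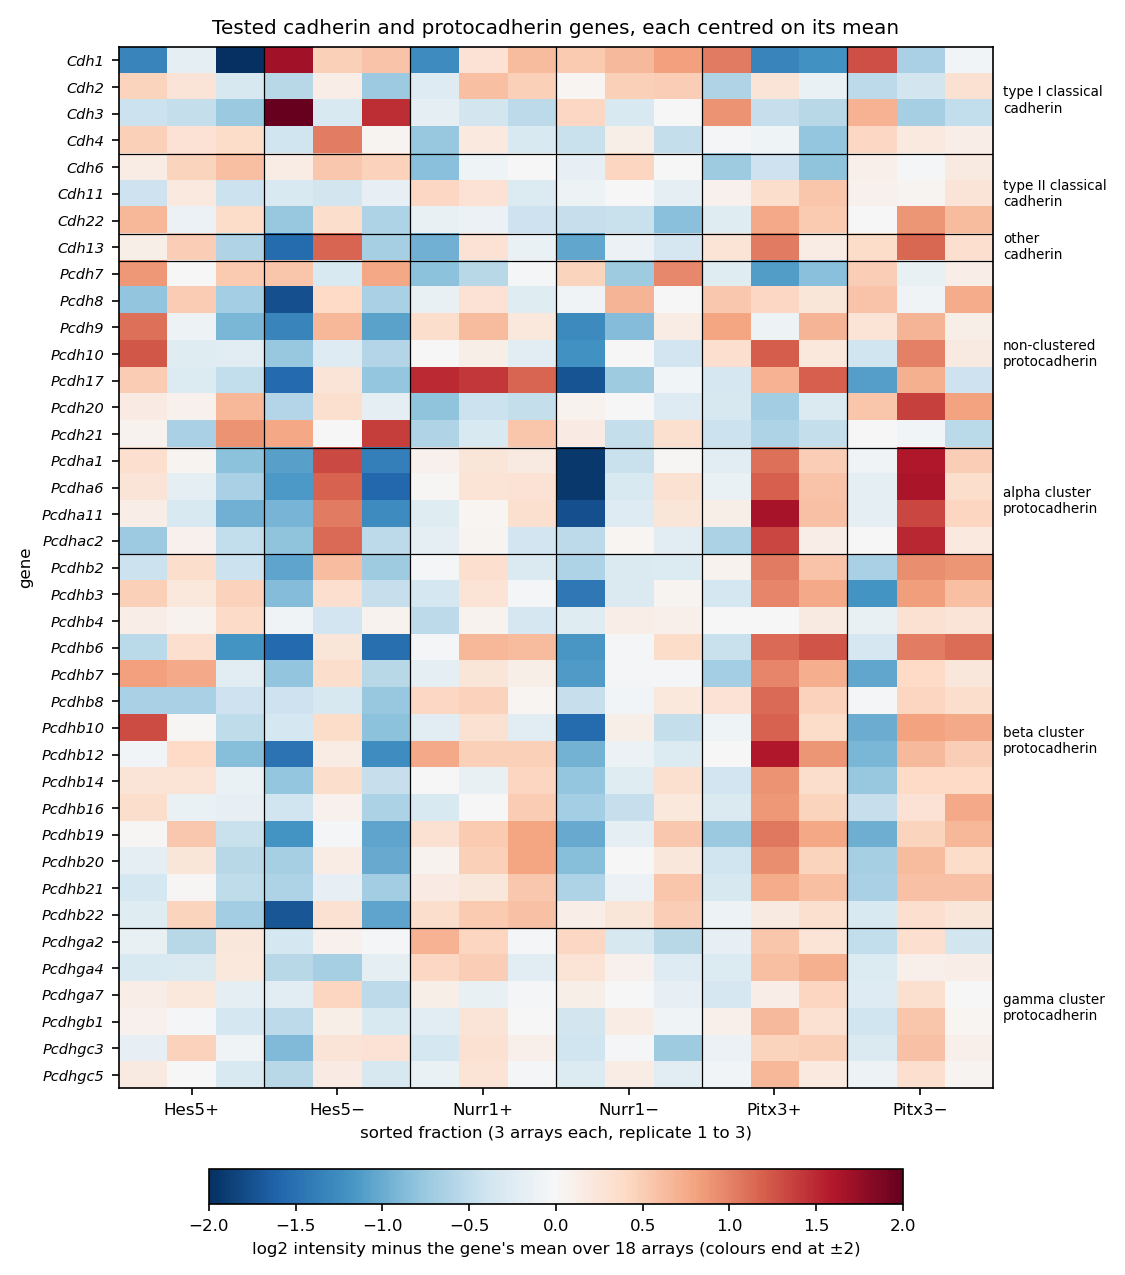
Heat map of the 39 tested genes (rows, by class) on the 18 arrays (columns, positive fraction left of negative in each line), as log2 intensity minus the gene's mean. The alpha and beta cluster rows share a pattern across arrays, with Hes5 negative replicate 2 high where replicates 1 and 3 are low.

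Calls in these genes were few, and each involved Pitx3 positive cells. Pcdh20, a non-clustered protocadherin, fell in Pitx3 positive cells. Cdh6, a type II cadherin of early neural tissue, was lower and Pcdhb8, of the beta cluster, higher in Pitx3 positive than in Hes5 positive cells. Comparisons between positive fractions are also comparisons between lines, so the sorted fraction and the line cannot be told apart in them. With pairs, Cdh6 and Pcdh7 were also lower in Pitx3 positive than in Pitx3 negative cells. Among all genes, 0.413% were called in the Pitx3 sort without pairs and 15.1% with pairs, against 1 of 39 and 3 of 39 of these genes. Between Pitx3 positive and Hes5 positive cells 4.51% of all genes were called without pairs and 4.16% with pairs as a random term, against 2 of 39.

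The promoters of Cdh6, Pcdh7 and Pcdh20 are shown because these 3 genes were called lower in Pitx3 positive than in Pitx3 negative cells with pairs. Each line runs 5′ to 3′ on the gene's strand, over 250 bases before to 50 after the start of the gene, from RefSeq on GRCm38.p6. They lie at chr15:13173626-13173925 (Cdh6, minus strand), chr5:57717831-57718130 (Pcdh7, plus strand) and chr14:88471347-88471646 (Pcdh20, minus strand). Capitals mark matches, on either strand, to a motif of the 3 reporter factors. The motifs searched were AAAGGTCA, the element bound by Nurr1 and its relatives, TAATCC, bound by bicoid-type homeobox factors such as Pitx3, and CACNAG, the N-box bound by Hes repressors.
Cdh6: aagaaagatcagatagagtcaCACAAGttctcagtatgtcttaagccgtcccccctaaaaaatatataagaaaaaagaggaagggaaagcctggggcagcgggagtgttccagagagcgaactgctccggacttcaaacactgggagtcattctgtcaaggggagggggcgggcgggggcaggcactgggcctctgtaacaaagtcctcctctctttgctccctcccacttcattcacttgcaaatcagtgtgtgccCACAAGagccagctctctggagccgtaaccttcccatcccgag
Pcdh7: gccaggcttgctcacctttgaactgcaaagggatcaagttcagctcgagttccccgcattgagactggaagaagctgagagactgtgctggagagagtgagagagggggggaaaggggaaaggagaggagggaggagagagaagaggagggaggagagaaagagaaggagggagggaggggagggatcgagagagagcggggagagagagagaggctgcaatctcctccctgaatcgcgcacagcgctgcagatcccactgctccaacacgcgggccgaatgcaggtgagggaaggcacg
Pcdh20: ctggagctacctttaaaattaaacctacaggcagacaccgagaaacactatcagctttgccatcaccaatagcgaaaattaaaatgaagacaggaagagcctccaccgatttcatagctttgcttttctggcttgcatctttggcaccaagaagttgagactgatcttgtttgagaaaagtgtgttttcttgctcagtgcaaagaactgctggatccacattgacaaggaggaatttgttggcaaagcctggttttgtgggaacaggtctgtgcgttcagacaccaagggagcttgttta
Cdh6 held 2 matches to the N-box, which do not overlap and which 42.5% of all 32851 promoters in the table also hold at least once. The other promoters held no match, and none of the 3 held the Nurr1 element, which 1.51% of promoters hold, or the bicoid element, which 7.06% hold. A match describes letters in this window and does not show binding. Promoters of 8 of the 39 genes were in the table.

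Among the type I cadherins, Cdh1 had the largest difference in the Hes5 sort. It read 6.37, 7.5 and 5.68 in Hes5 positive replicates 1 to 3, against 9.37, 8.16 and 8.26 in Hes5 negative replicates. All positive arrays were below all negative arrays, and the groups did not overlap. The difference of -2.08 (SE 0.69) was not called in either fit (adjusted p 0.584, or 0.0601 with pairs). In the Nurr1 line Cdh1 read 6.42, 7.98 and 8.32 in positive and 8.21, 8.34 and 8.5 in negative cells. In the Pitx3 line it read 8.73, 6.37 and 6.48 in positive and 8.98, 7.04 and 7.63 in negative cells. It was lower in the positive array of all 9 pairs, although only the Hes5 groups stood apart, and the differences in the other lines were -0.78 (SE 0.69, adjusted p 0.784) and -0.69 (SE 0.69, adjusted p 0.683). A second, dimmer probe of Cdh1, above background on 4 arrays, had differences of -0.38, 0.0 and 0.28 in the Hes5, Nurr1 and Pitx3 sorts. The count of 9 pairs therefore holds for the brighter probe read here.

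Cdh3, P-cadherin, which epithelia and the early embryo use, gave a like picture in the Hes5 line. Its level was 4.81, 4.76 and 4.49 in Hes5 positive cells, none of them above background, and 7.24, 4.93 and 6.72 in Hes5 negative cells, of which replicates 1 and 3 were above background. Replicate 2, the array with contradictory labels, lay close to the positive arrays. The difference was -1.61 (SE 0.52, adjusted p 0.583). Set against a floor the fold was 1.42, but the brighter mean holds replicate 2, which was not above background, so this is no firm bound. Here and below, such a fold sets the mean of the brighter group against the floor. The floor is taken per array as the higher of the gene's own value and the dimmest signal above background. Without Hes5 negative replicate 2 the difference was -2.29 with an adjusted p of 0.03, the only setting with 1 array left out in which Cdh3 was called. With pairs and with Hes5 pair 2 left out, Cdh1, Cdh3, Cdh22 and Pcdhb3 were called in the Hes5 sort. Over all 18 arrays the levels of Cdh3 and Cdh1 correlated at r = 0.68, a description of arrays that share lines and sorts.

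In the Hes5 line markers of other cells were, like Cdh1 and Cdh3, higher on average in negative cells. The 10 pluripotency markers, all tested, had a median level of 6.73, 6.31 and 5.81 in Hes5 positive replicates, against 10.35, 6.59 and 8.85 in Hes5 negative replicates. The 6 epithelial and endoderm markers tested, of 9 listed, read 7.29, 5.59 and 5.58 in Hes5 positive cells and 9.24, 7.27 and 8.98 in Hes5 negative cells. Pitx3 positive replicate 1, which had the highest Cdh1 and Cdh3 of its group at 8.73 and 6.13, also had the highest pluripotency median of its group, 8.26 against 4.77 and 5.69 in replicates 2 and 3. The number of pluripotency markers above background was 9 on that array and 1 and 5 on the other two. In Nurr1 positive replicates 1 to 3, where Cdh1 read 6.42, 7.98 and 8.32, the pluripotency medians were 5.63, 5.56 and 5.82. The epithelial and endoderm medians there were 6.23, 7.16 and 8.5. The part of these other cells in the Cdh1 and Cdh3 levels was not tested.

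Cdh2, N-cadherin, was above background on every array and differed little. It read 7.14, 6.94 and 6.37 in Hes5 positive and 6.14, 6.83 and 5.96 in Hes5 negative cells, higher in all 3 pairs but with overlapping groups (0.51, SE 0.32, adjusted p 0.805, and 0.77 without Hes5 negative replicate 2). Its group means lay between 6.31 and 7.03 over the 6 fractions, and no comparison was called. Cdh4, R-cadherin of the retina and brain, was named after its values were seen. It had a mean of 6.45 ± 0.41 in Pitx3 positive and 7.0 ± 0.15 in Pitx3 negative cells (SD, n = 3 each), with no overlap and an adjusted p of 0.463. Cdh15, the muscle cadherin, was not above background on any array.

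**Figure D2:**
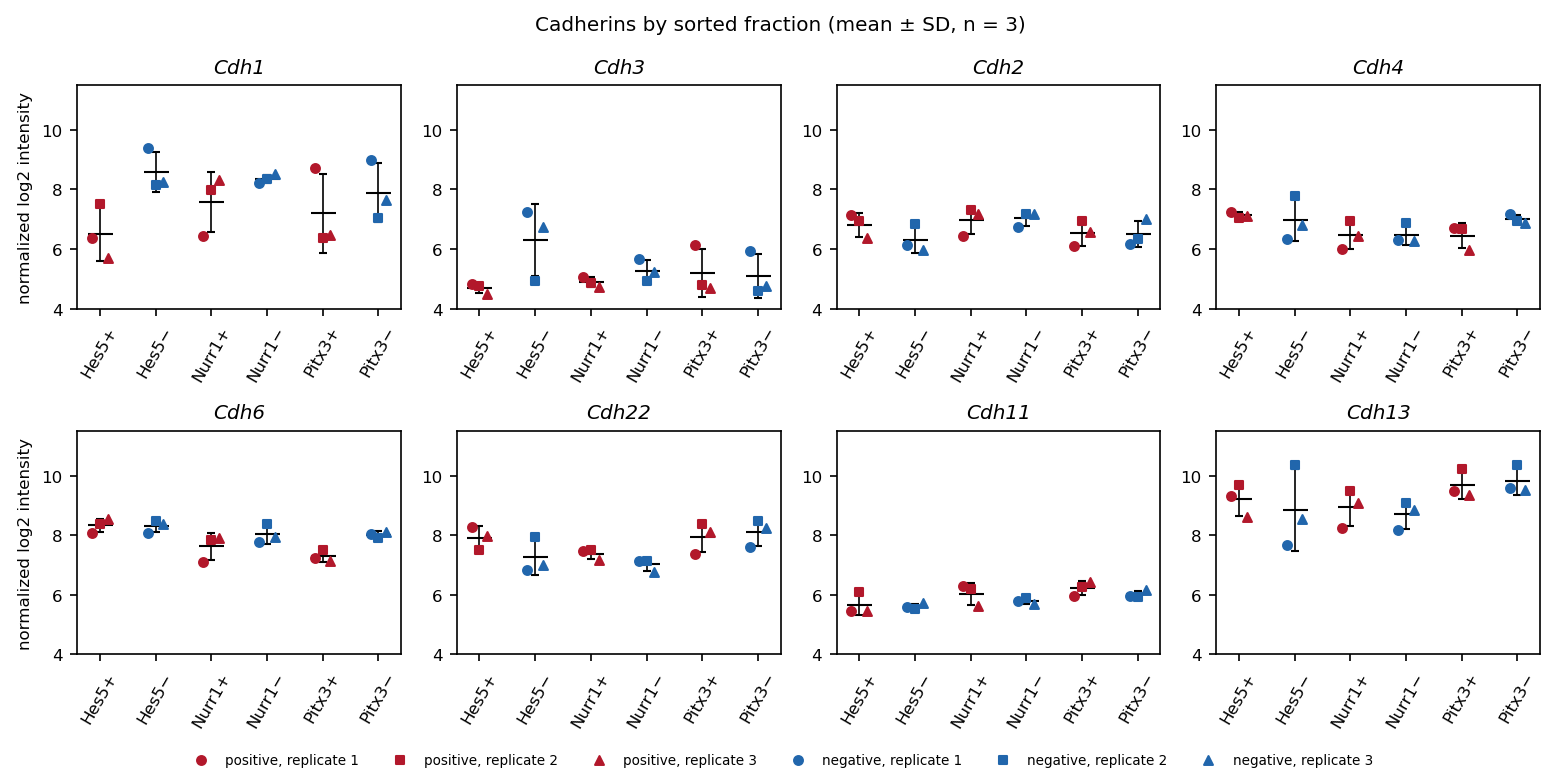
Normalized log2 intensity of 8 cadherins in the 6 fractions, positive (red) left of negative (blue) in each line, with points for single arrays, shaped by replicate, and bars for mean ± SD (n = 3). Cdh1 is lower in Hes5 positive than in Hes5 negative cells on every array, and Cdh6 is lowest in Pitx3 positive cells.

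Among the type II cadherins, Cdh6 was highest in Hes5 positive and lowest in Pitx3 positive cells of the positive fractions. It read 8.08, 8.38 and 8.53 in Hes5 positive, 7.10, 7.85 and 7.92 in Nurr1 positive, and 7.23, 7.52 and 7.13 in Pitx3 positive cells, above background throughout. Pitx3 positive arrays all lay below Hes5 positive arrays, while Nurr1 positive arrays overlapped with Pitx3 positive ones. Cdh6 was lower in Pitx3 positive than in Hes5 positive cells, with a difference of -1.04 (SE 0.23, adjusted p 0.0212, or 0.0313 with pairs as a random term). Nurr1 positive cells differed from Hes5 positive cells by -0.71 (SE 0.23, adjusted p 0.21) without overlap, and Pitx3 positive from Nurr1 positive cells by -0.33 (SE 0.23, adjusted p 0.984). Within the Pitx3 line it read 7.23, 7.52 and 7.13 in positive and 8.03, 7.90 and 8.12 in negative cells, again without overlap. That difference of -0.72 (SE 0.23) was called with pairs only (adjusted p 0.022, against 0.175 without), and leaving out any Pitx3 pair ended the paired call. In the Hes5 line Cdh6 was 8.33 ± 0.23 in positive and 8.32 ± 0.20 in negative cells, a difference of 0.01 (SE 0.23). The difference between the Pitx3 and Hes5 sort effects was -0.73 (SE 0.32) and was not called (adjusted p 0.581, or 0.105 with pairs).

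The Cdh6 call between Pitx3 positive and Hes5 positive cells was lost without Hes5 positive replicate 1 or 3 or without Pitx3 positive replicate 2 or 3, with differences of -1.16 to -0.94. The 8 neural progenitor markers tested, of 9 listed, had a median level of 8.11 to 10.86 in Pitx3 positive, against 11.42 to 12.09 in Hes5 positive and 11.66 to 12.07 in Pitx3 negative cells. Their part in the Cdh6 difference was not tested.

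Cdh22, a type II cadherin of the brain, read 8.26, 7.49 and 7.97 in Hes5 positive and 6.84, 7.95 and 6.99 in Hes5 negative cells, where replicate 2 alone reached the positive arrays. It read 7.46, 7.49 and 7.18 in Nurr1 positive and 7.14, 7.15 and 6.77 in Nurr1 negative cells, with no overlap and an adjusted p of 0.787. Cdh11, a type II cadherin of mesenchyme and brain, lay close to background, with group means of 5.61 to 6.22, and was above background on 3 arrays in each Pitx3 fraction and on 0 to 2 arrays elsewhere. Cdh13, T-cadherin, which is held by a lipid anchor and has no catenin-binding tail, read 9.32, 9.69 and 8.60 in Hes5 positive and 7.66, 10.36 and 8.54 in Hes5 negative cells. Its 3 probes gave differences of 0.27 to 0.53 in the Hes5 sort. Without Hes5 negative replicate 2 the differences of Cdh22 and Cdh13 were 0.99 and 1.10, against 0.64 and 0.35 with it. With all arrays no comparison of Cdh13, Cdh22 or Cdh11 was called in either fit. Without Hes5 positive replicate 2, Cdh11 was called between Pitx3 positive and Hes5 positive cells, where its difference over all arrays was 0.54 (SE 0.21, adjusted p 0.128).

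Among the non-clustered protocadherins, Pcdh20 was the gene called in the Pitx3 sort without pairs. It read 5.52, 5.15 and 5.55 in Pitx3 positive cells, none above background, against 6.40, 7.21 and 6.65 in Pitx3 negative cells, all above background. All positive arrays lay below all negative arrays. The difference was -1.35 (SE 0.26, adjusted p 0.0387, and 0.0181 with pairs), at least 1.70-fold lower in Pitx3 positive cells. In the Nurr1 line it read 5.03, 5.41 and 5.36 in positive and 5.92, 5.85 and 5.58 in negative cells, also without overlap (-0.52, SE 0.26, adjusted p 0.611). In the Hes5 line it read 6.01, 5.93 and 6.5 in positive and 5.25, 6.17 and 5.67 in negative cells, and was higher in the positive array of 2 of 3 pairs. The difference of the Pitx3 and Hes5 sort effects was -1.80 (SE 0.36) and was called with pairs only (adjusted p 0.0418, against 0.0865 without). Without pairs it was called when Hes5 negative replicate 2 (-2.03, adjusted p 0.0411) or Pitx3 positive replicate 1 (-1.85, adjusted p 0.0413) was left out, and with pairs it remained called only when Hes5 pair 2 or Pitx3 pair 1 was left out. For that difference, 0.0526% of all genes were called without pairs and 3.31% with pairs, against 0 and 1 of these 39, and 3 of the 39 had an unadjusted p under 0.05 without pairs and 4 with pairs (7.88% and 21.2% of all genes).

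The Pcdh20 call was not stable when arrays were left out. When each of the 18 arrays was left out in turn, it was called in 8 settings and not in 10, with differences of -1.53 to -1.12 and adjusted p of 0.0139 to 0.217. Leaving out Pitx3 positive replicate 2 or 3, or any Pitx3 negative array, ended the call, as did leaving out Nurr1 positive replicate 2, any Nurr1 negative array or Hes5 negative replicate 3. Those Nurr1 and Hes5 arrays do not enter the Pitx3 difference. Leaving them out changes the shared estimate of the spread and not the Pitx3 arrays. With pairs, leaving out Pitx3 pair 2 or pair 3 ended the call. Across the positive fractions Pcdh20 averaged 6.15 ± 0.31 in Hes5, 5.26 ± 0.21 in Nurr1 and 5.41 ± 0.22 in Pitx3 positive cells (SD, n = 3 each), above background on 3, 0 and 0 arrays. The bounds against Hes5 positive cells were at least 1.23-fold lower in Nurr1 positive and at least 1.12-fold lower in Pitx3 positive cells, with adjusted p of 0.165 and 0.0981.

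Pcdh7, also called brain-heart protocadherin, was also lower in Pitx3 positive cells. It read 5.82, 4.95 and 5.22 in Pitx3 positive cells, none above background, and 6.56, 5.92 and 6.19 in Pitx3 negative cells. All pairs were lower in positive cells and the groups did not overlap. The difference of -0.89 (SE 0.41), at least 1.18-fold, was called with pairs only (adjusted p 0.0408, against 0.33 without), and in the deposited log2 table it was -0.30. Against Hes5 positive cells, which read 6.93, 6.06 and 6.59, Pitx3 positive cells were at least 1.45-fold lower on this scale (-1.20, SE 0.41, adjusted p 0.0938, and -0.49 in the deposited log2 table), and without Pitx3 positive replicate 1 that difference was called (-1.44, adjusted p 0.0496). Nurr1 positive cells read 5.24, 5.51 and 6.03, below all Hes5 positive arrays (-0.93, SE 0.41, adjusted p 0.336). With pairs, leaving out Hes5 pair 3 or any Pitx3 pair or Nurr1 pair 3 ended the Pcdh7 call in the Pitx3 sort.

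Pcdh17, an adhesion protein of axons and synapses in the basal ganglia and forebrain, had the largest difference of the 39 genes in the Nurr1 sort. It read 10.80, 10.71 and 10.46 in Nurr1 positive cells, against 7.57, 8.59 and 9.24 in Nurr1 negative cells. The positive arrays were tight and all above the negative arrays, which spread widely. The difference of 2.19 (SE 0.55), higher in 3 of 3 pairs, was not called (adjusted p 0.342, or 0.0745 with pairs). With pairs it was called when Hes5 pair 1 or Hes5 pair 2 was left out, which changes the shared estimate of the spread and not the Nurr1 arrays. In the other lines Pcdh17 ranged over 8.97 to 10.49 in Pitx3 positive and 8.20 to 10.02 in Pitx3 negative cells, and over 8.81 to 9.81 in Hes5 positive and 7.75 to 9.56 in Hes5 negative cells. Nurr1 positive cells were above Hes5 positive cells without overlap (1.44, SE 0.55, adjusted p 0.288). The difference of the Nurr1 and Hes5 sort effects was 1.59 (SE 0.78, adjusted p 1 without pairs and 0.343 with pairs), so the sorts were not shown to differ.

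Pcdh9, a non-clustered protocadherin of neurons, read 8.43, 8.71 and 8.29 in Nurr1 positive and 6.81, 7.21 and 8.23 in Nurr1 negative cells. The groups lay close but did not overlap, and the difference of 1.06 (SE 0.54) had an adjusted p of 0.627. Pcdh10, which the naming rule did not take and which was singled out after its values were seen, was higher in the positive array of all 9 pairs. Its differences were 0.80, 0.49 and 0.33 in the Hes5, Nurr1 and Pitx3 sorts, and its other 2 probes gave 1.31 and 1.19 in the Hes5 sort, and the gene was not called. Pcdh21, a cadherin-related protein of photoreceptors, read 5.40, 4.68 and 6.23 in Hes5 positive and 6.11, 5.34 and 6.72 in Hes5 negative cells, lower in the positive array of 3 of 3 pairs (-0.62, SE 0.41, adjusted p 0.812, and -0.98 without Hes5 negative replicate 2).

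**Figure D3:**
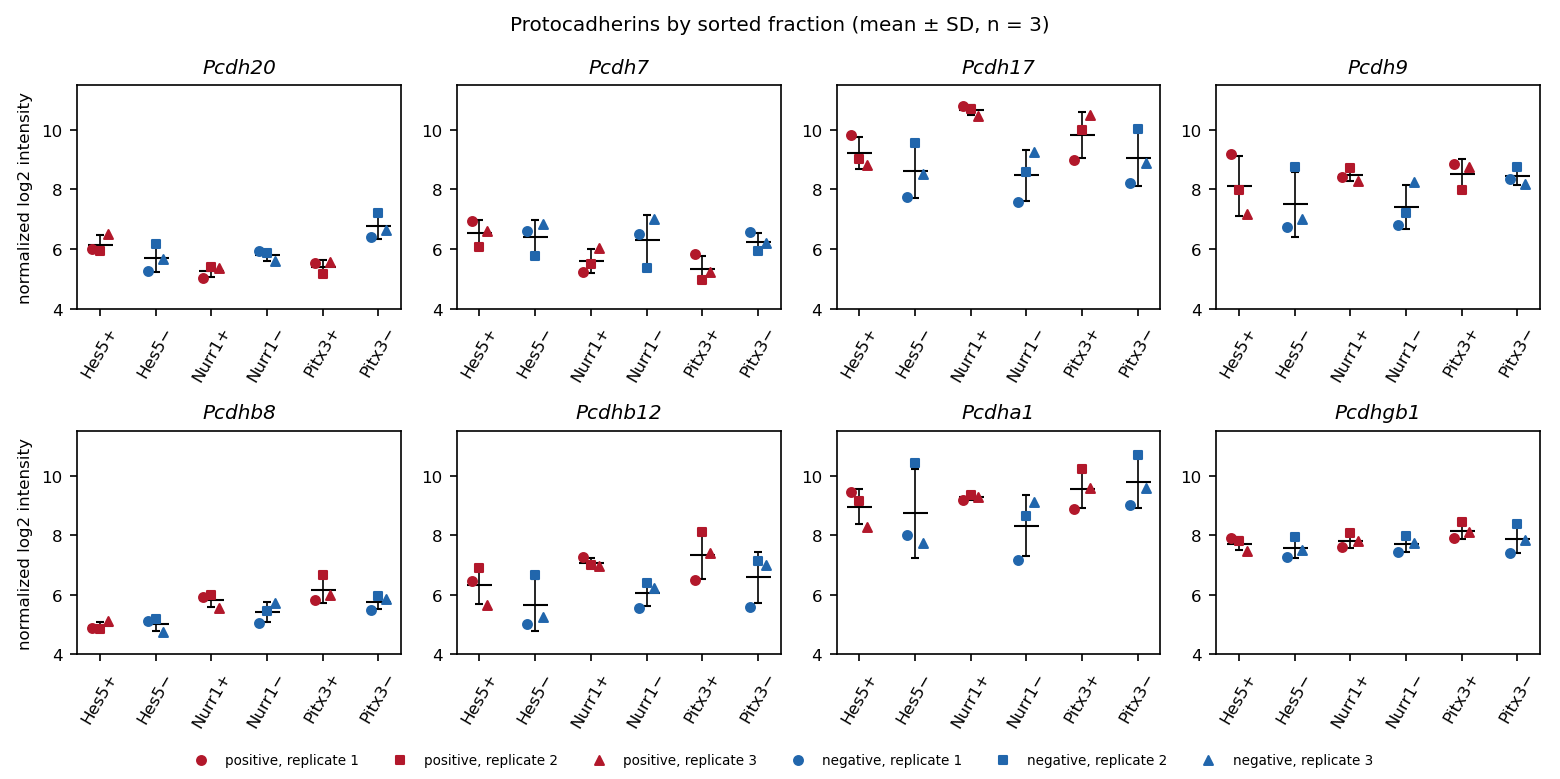
Normalized log2 intensity of 8 protocadherins in the 6 fractions, positive (red) left of negative (blue) in each line, with points for single arrays, shaped by replicate, and bars for mean ± SD (n = 3). Pcdh20 lies lower on every Pitx3 positive than on every Pitx3 negative array, and Pcdh17 is high and tight in Nurr1 positive cells.

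The beta cluster had a common direction in the sorts but no called gene. Of its 14 tested genes, 13 had a higher mean in the positive fraction in the Hes5 sort, 13 in the Nurr1 sort and 13 in the Pitx3 sort, with median differences of 0.45, 0.43 and 0.24. The same medians over all genes tested were 0.04, -0.02 and 0.01, and 54.8%, 47.2% and 51.6% of all genes were higher. None of the 14 passed limma's test in any sort in either fit with all arrays, and none had an unadjusted p under 0.05 without pairs. With pairs, 8 of the 14 had an unadjusted p under 0.05 in the Hes5 sort, 5 in the Nurr1 sort and 1 in the Pitx3 sort, against 21.5%, 24.3% and 33.3% of all genes. With pairs and Hes5 pair 1 left out, Pcdhb6, Pcdhb12, Pcdhb19 and Pcdhb20 were called in the Nurr1 sort and Pcdhb12 in the Pitx3 sort, and with Hes5 pair 2 left out Pcdhb20 was called in the Nurr1 sort. The gene with a lower mean was Pcdhb8 in the Hes5 sort and Pcdhb4 in the other two. The genes lie in tandem and their sequences are alike, so they are not independent of each other and a probe may read more than its own gene.

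By pair, the number of the 14 genes that were higher in the positive array was 13, 8 and 14 in Hes5 pairs 1 to 3, 13, 13 and 9 in Nurr1 pairs, and 13, 12 and 9 in Pitx3 pairs. The smallest count belonged to Hes5 pair 2, which holds the array with contradictory labels. Without that array all 14 genes had a higher mean in the positive fraction in the Hes5 sort, with a median difference of 0.81 against 0.06 over all genes, and none was called. The median level of the 14 genes was 6.22, 6.59 and 5.79 in Hes5 positive and 5.33, 6.64 and 5.45 in Hes5 negative cells. In the Nurr1 line it was 6.30, 6.80 and 6.46 in positive and 5.29, 6.38 and 6.15 in negative cells, and in the Pitx3 line 5.92, 7.54 and 6.97 in positive and 5.52, 7.06 and 6.91 in negative cells. Pitx3 replicate 1 was low and replicate 2 high in both fractions, so that the spread between replicates exceeded the spread between fractions.

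Pcdhb8 was higher in Pitx3 positive than in Hes5 positive cells, and the negative fractions of these lines stood apart in the same direction. It read 5.82, 6.66 and 5.99 in Pitx3 positive cells and 4.88, 4.87 and 5.11 in Hes5 positive cells, without overlap. The difference was 1.20 (SE 0.24, adjusted p 0.0144, and 0.0346 with pairs as a random term). Set against the floor the fold was 1.28, but the brighter mean itself holds 2 values not above background, so this is no firm bound. Only 1 of 3 Pitx3 positive and 0 of 3 Hes5 positive arrays were above background, so the gene stood near the limit of detection, and it was not tested under a filter that asks for all arrays of a group. Leaving out Hes5 positive replicate 1 or Pitx3 positive replicate 2 ended the call. Nurr1 positive cells read 5.94, 5.98 and 5.56, also above every Hes5 positive array (0.87, SE 0.24, adjusted p 0.136).

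Pcdhb12 read 7.26, 6.99 and 6.98 in Nurr1 positive and 5.57, 6.39 and 6.24 in Nurr1 negative cells, higher in all 3 pairs and without overlap. The difference of 1.01 (SE 0.51) was not called (adjusted p 0.623, or 0.0892 with pairs). It was also higher in the positive array of all 3 pairs in the Hes5 line (0.69, SE 0.51, adjusted p 0.828, and 1.19 without Hes5 negative replicate 2) and in the Pitx3 line (0.75, SE 0.51, adjusted p 0.521). Pcdhb6 averaged 5.91 ± 0.76 in Hes5, 6.81 ± 0.39 in Nurr1 and 7.03 ± 0.95 in Pitx3 positive cells (SD, n = 3 each), above background on 1, 3 and 3 arrays, and neither difference from Hes5 positive cells was called (adjusted p 0.559 for Nurr1 and 0.261 for Pitx3 positive cells). Pcdhb22 read 9.10, 9.79 and 8.65 in Hes5 positive and 7.63, 9.65 and 8.29 in Hes5 negative cells (0.65, SE 0.39, adjusted p 0.793, and 1.22 with an adjusted p of 0.0999 without Hes5 negative replicate 2). It read 9.24, 9.52 and 9.66 in Pitx3 positive and 9.69, 9.87 and 9.93 in Nurr1 positive cells, without overlap (-0.35, SE 0.39, adjusted p 0.992).

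The alpha cluster had no common direction over the 3 sorts. Of its 4 genes tested, 3 were higher in positive cells of the Hes5 line, 4 in Nurr1 and 1 in Pitx3. Median differences were 0.12, 0.74 and -0.13, and 54.8%, 47.2% and 51.6% of all genes were higher. Without Hes5 negative replicate 2 all 4 were higher in the Hes5 sort, with a median difference of 0.91. Pcdha1 read 9.44, 9.16 and 8.29 in Hes5 positive and 8.02, 10.43 and 7.74 in Hes5 negative cells, so that Hes5 negative replicate 2 was above all positive arrays and the other two negative arrays below them. It read 9.19, 9.35 and 9.28 in Nurr1 positive and 7.17, 8.66 and 9.13 in Nurr1 negative cells, without overlap (0.95, SE 0.67, adjusted p 0.717). In the Pitx3 line it read 8.88, 10.21 and 9.60 in positive and 9.03, 10.70 and 9.59 in negative cells, and the positive and negative arrays of a pair lay close together. Pcdha6 and Pcdha11 were also highest in replicate 2 of the Hes5 negative cells, and had differences of 0.32 and 0.01 in the Hes5 sort, 0.83 and 0.65 in the Nurr1 sort and -0.05 and 0.25 in the Pitx3 sort. Without Hes5 negative replicate 2 the Hes5 differences were 1.09 for Pcdha1, 1.17 for Pcdha6 and 0.72 for Pcdha11, with adjusted p of 0.372, 0.367 and 0.559, against 0.24, 0.32 and 0.01 with it. Over the 18 arrays Pcdha1 and Pcdha6 correlated at r = 0.99, Pcdha6 and Pcdha11 at 0.97, and Pcdha1 and Pcdha11 at 0.96. All transcripts of this cluster end in the same constant exons, and where in a gene the array's probes lie is not given in the sources used here, so a probe may read several alpha genes. The 91 pairs of beta genes correlated at -0.14 to 0.95, with a median of 0.74, and the 15 pairs of gamma genes at 0.24 to 0.93, with a median of 0.43.

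The gamma cluster, whose loss in mice costs spinal interneurons, had small differences. All 6 tested genes had a higher mean in Pitx3 positive than in Pitx3 negative cells, by 0.05 to 0.39, and 5 of 6 had a higher mean in the positive fraction in each of the other sorts. Without Hes5 negative replicate 2 all 6 did in the Hes5 sort, with a median difference of 0.35 against 0.17 with it. Pcdhga4 read 6.58, 7.46 and 7.56 in Pitx3 positive and 6.58, 6.96 and 6.99 in Pitx3 negative cells (0.36, SE 0.28, adjusted p 0.586), and was higher in 3 of 3 pairs of every line, in Pitx3 pair 1 by less than the second decimal. It was called in the Pitx3 sort with pairs when Pitx3 pair 1 was left out. Pcdhgb1 read 7.91, 8.45 and 8.11 in Pitx3 positive and 7.90, 7.79 and 7.46 in Hes5 positive cells, which nearly met (0.44, SE 0.25, adjusted p 0.287). Pcdhgc3 had group means of 6.07 to 6.71 and no call.

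**Figure D4:**
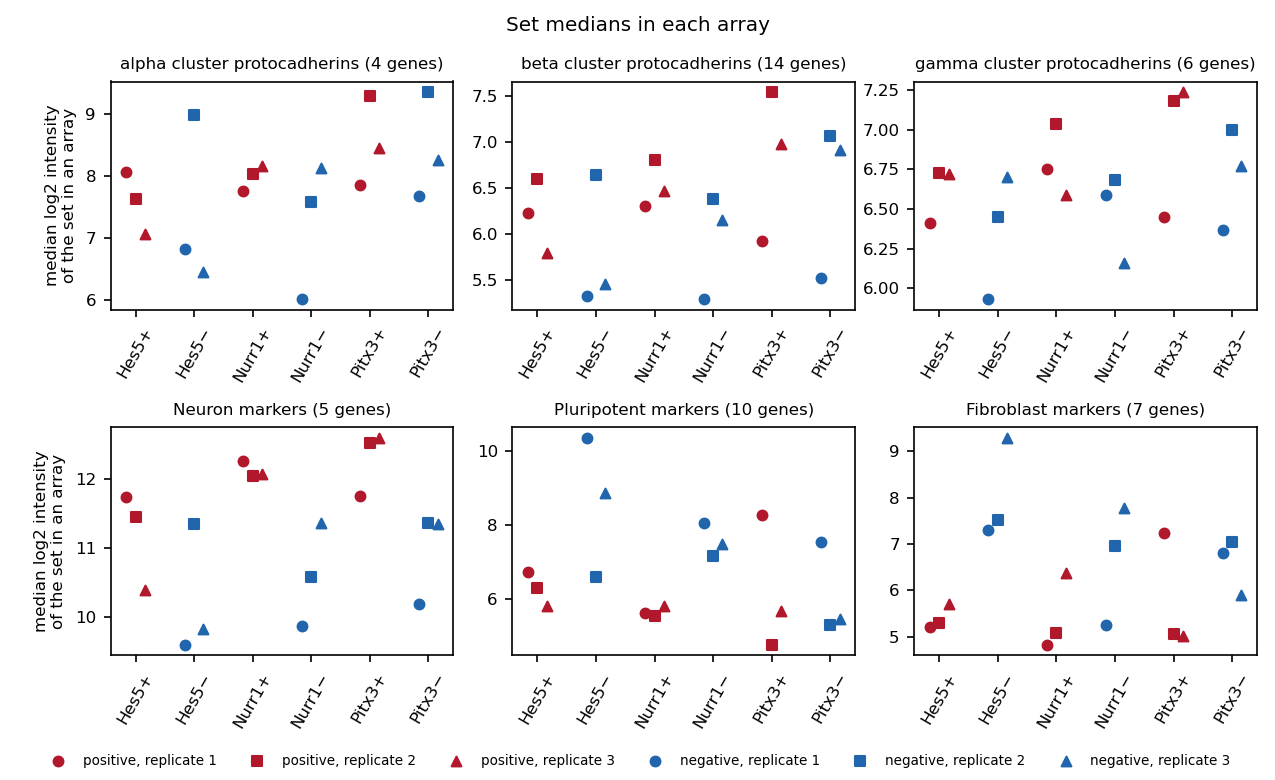
Median normalized log2 intensity of the alpha, beta and gamma clusters (top) and of neuron, pluripotency and fibroblast markers (bottom) on each array, positive (red) left of negative (blue) in each line, shaped by replicate. Hes5 negative replicate 2 lies within or above the range of the Hes5 positive arrays for the alpha, beta and gamma clusters and for neuron and pluripotency markers. For fibroblast markers, at 7.51, it lies among the Hes5 negative arrays and above all Hes5 positive arrays.

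In the negative fractions of the Hes5 and Nurr1 lines, neuron markers and the alpha cluster were highest on the same array of each group. They shared the lowest array in the Nurr1 and Pitx3 lines and not in the Hes5 line. The median level of the neuron markers was 11.73, 11.44 and 10.38 in Hes5 positive and 9.59, 11.34 and 9.83 in Hes5 negative replicates. In the Hes5 negative replicates the alpha genes read 6.82, 8.97 and 6.44. Hes5 negative replicate 2 was the highest of its group in both, and Nurr1 negative replicate 1, at 9.86 for neuron markers, was the lowest of its group in both, with an alpha median of 6.01. In these 2 lines the gamma cluster did not share this. Its medians were 5.93, 6.45 and 6.70 in Hes5 negative and 6.59, 6.68 and 6.16 in Nurr1 negative replicates. The fibroblast markers, 7 tested of 8 listed, had medians of 5.21 to 5.71 in Hes5 positive and 7.31 to 9.29 in Hes5 negative cells. In the Pitx3 line the neuron markers read 11.75, 12.51 and 12.59 in positive and 10.18, 11.36 and 11.34 in negative cells, all positive arrays above all negative arrays, while the alpha medians were 7.85, 9.28 and 8.44 in positive and 7.67, 9.35 and 8.25 in negative cells. The part of neurons and fibroblasts in the cluster levels was not tested.

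Over all 39 genes the sorts called few or none. In the Hes5 sort limma called 0 of 39 in both fits, while 0.015% of all genes were called without pairs and 1.25% with pairs. Without pairs 2 of 39, Cdh1 and Cdh3, had an unadjusted p under 0.05 (6.61% of all genes), and with pairs 13 of 39 (21.5% of all genes). Without Hes5 negative replicate 2 it called 1 of 39, Cdh3, and 0.759% of all genes. In the Nurr1 sort it called 0 of 39 in both fits, while 0.0225% of all genes were called without pairs and 0.774% with pairs. Without pairs 1 of 39, Pcdh17, had an unadjusted p under 0.05 (8.41% of all genes), and with pairs 9 of 39 (24.3% of all genes). Between Nurr1 positive and Hes5 positive cells it called 0 of 39, against 0.398% of all genes without pairs and 0.263% with pairs as a random term, and 6 and 5 of 39 had an unadjusted p under 0.05 (13.7% and 13.5% of all genes). Between Pitx3 positive and Nurr1 positive cells it called 0 of 39, against 0.015% of all genes in either fit, and 0 of 39 had an unadjusted p under 0.05 in either fit (5.01% of all genes without pairs and 4.92% with pairs as a random term). The differences between the Nurr1 and Hes5 and between the Pitx3 and Nurr1 sort effects called 0 of 39 each in both fits, against 0.00752% and 0.0% of all genes without pairs. For the Nurr1 and Hes5 difference 1 of 39 had an unadjusted p under 0.05 without pairs (4.01% of all genes) and 4 with pairs (2022 of the 13305 genes), and for the Pitx3 and Nurr1 difference 1 in each fit (0.428% of all genes without pairs and 3.74% with pairs). In the Pitx3 sort 3 of 39 had an unadjusted p under 0.05 in limma without pairs (14.7% of all genes) and 5 with pairs (33.3%). Between Pitx3 positive and Hes5 positive cells it was 5 of 39 without pairs (25.3% of all genes) and 6 with pairs as a random term (24.6%). These comparisons share groups, so their calls are not independent.

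Groups without overlap were no more common here than among all genes. Their number was 4 of 39 in the Hes5 sort (10.3%, against 10.1% of all genes), 6 in the Nurr1 sort (15.4%, against 22.9%) and 4 in the Pitx3 sort (10.3%, against 17.0%). It was 8 between Nurr1 positive and Hes5 positive cells (20.5%, against 22.2%), 2 between Pitx3 positive and Nurr1 positive cells (5.13%, against 8.83%) and 6 between Pitx3 positive and Hes5 positive cells (15.4%, against 26.9%). Each share lay near or below the background, so the counts single out no comparison.

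The proteins that work with cadherins were read from a list of 66 genes, of which 46 were tested, among them Cdhr1, which is the row Pcdh21. In the Hes5 and Nurr1 sorts none was called in either fit. In the Pitx3 sort none was called without pairs, while with pairs 4 were higher and 4 lower in positive cells, against 6.28% of all genes called higher and 8.81% called lower in that fit. Magi1, a scaffold of cell junctions, had 8.81, 9.17 and 9.48 in Pitx3 positive and 7.66, 7.80 and 8.04 in Pitx3 negative cells (1.32, SE 0.30, adjusted p 0.0616 without pairs and 0.00505 with pairs). Ctnna1, alpha-catenin, the link between cadherins and actin, had 13.37, 13.48 and 13.22 in positive and 12.68, 11.96 and 12.33 in negative cells (1.03, SE 0.22, adjusted p 0.0542 and 0.0177 with pairs). Both were called without pairs in Pitx3 positive against Hes5 positive cells, with differences of 1.35 (adjusted p 0.0227) and 0.82 (adjusted p 0.0451, or 0.0816 with pairs as a random term). In that comparison 2 of the 46 were called higher and 2 lower, Celsr1 and Tcf3, against 2.12% of all genes higher and 2.39% lower.

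Celsr1, a large cadherin of planar cell polarity in epithelia, had 6.58, 4.88 and 5.91 in Pitx3 positive and 7.49, 7.84 and 8.09 in Pitx3 negative cells (-2.02, SE 0.47, adjusted p 0.0667 and 0.0172 with pairs). It was above background on 1 of 3 Pitx3 positive arrays and on all arrays of Pitx3 negative and Hes5 positive cells, so the sizes of its differences rest on readings near background. It was also lower in Pitx3 positive than in Hes5 positive cells (-2.22, SE 0.47, adjusted p 0.018). Fjx1, the mouse relative of the fly protein Four-jointed, differed by -1.31 (SE 0.49, adjusted p 0.0158 with pairs) and Fat1, a very large cadherin, by -1.11 (SE 0.34, adjusted p 0.021 with pairs) in the Pitx3 sort. Tcf3 encodes the E2A proteins that repress E-cadherin and was read from the row with its older symbol TCFE2A. The row named TCF3 was not read, since TCF3 is also an older name of Tcf7l1. Tcf3 had 5.99, 6.09 and 6.23 in Pitx3 positive and 6.54, 6.46 and 7.16 in Pitx3 negative cells (-0.62, SE 0.22, adjusted p 0.23 and 0.0352 with pairs). Against Hes5 positive cells its difference was -1.14 (SE 0.22, adjusted p 0.0137). Like Cdh6, Pcdh7 and Pcdh20, Celsr1, Fjx1, Fat1 and Tcf3 were lower in all 3 Pitx3 positive arrays than in their paired negative arrays, and neural progenitor markers had medians of 10.86, 8.11 and 9.85 in positive and 11.90, 11.66 and 12.07 in negative cells. The part of the progenitors in these differences was not tested.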

How the data were processed

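Total RNA of 18 sorted samples was read on Illumina mouse bead arrays. For each array and each of 45281 probes, the deposited scanner output gives an intensity averaged over beads, a detection p-value and a count of beads, which the authors left without normalization, per the file headers. A further 18 per-sample columns, the spread between beads, were not used. A second deposited table holds log2 values for 31441 genes. GenomeStudio and Partek were used, per the submitters' processing notes. The probe annotation and genome build are not given in the sources used here.

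The scanner output names no genes, so each gene with log2 values was tied to the probe, or the set of up to 5 probes, whose intensities give those values on all 18 arrays. This tied 31128 genes (99.0%), none of them to a probe of another gene. Symbols were matched to RefSeq names (13415 by symbol, 8105 by synonym, 9921 without a match). Intensities were background corrected with normexp, using control values inferred from the detection p-values (offset 16), quantile normalized and put on a log2 scale with limma. Probes with a detection p-value under 0.01 on at least 3 arrays were kept (18737), and the brightest kept probe was read for each of 13305 genes. The number of arrays limits the precision, and the fewest beads behind a value were 11.

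All 6 groups of 3 arrays entered a single limma fit with 12 residual degrees of freedom. P-values were adjusted by Benjamini-Hochberg over all genes, with a threshold of 0.05. Same-numbered fractions of a line deviated together (r of 0.435 to 0.772 over 9 pairs, against -0.637 to 0.168 over 18 other combinations), so the numbers pair the fractions. The paired fit, with 6 residual degrees of freedom, was an alternative to the unpaired fit, and between lines the pair was a random term with a consensus correlation of 0.595. The others changed the background correction, the scaling, the filter, the probe rule, the value table or the arrays used. The fits were tested on simulated data.

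The members, lists and rules were chosen with earlier results of these data known. Genes were named with values if they were called in either fit, if the groups did not overlap and the log2 difference was at least 1, or if they had 1 of the 3 widest ranges of group means in their class. Cdh1, Cdh2, Cdh3, Cdh5 and Cdh11 were named in any case where tested, and others are marked as chosen after their values were seen or appear in counts. Software was R 4.3.3, limma 3.58.1, Python 3.11.15, numpy 2.4.6, pandas 2.3.3, numba 0.67.0 and matplotlib 3.10.9, with version 1.17.8 of data.table.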

Additional observations from a re-analysis of the deposited data

Results flagged for a closer look

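For 3 genes the sorts of 2 lines were set against each other. Pcdh20 was lower in positive cells in all 3 Pitx3 pairs and higher in 2 of 3 Hes5 pairs, and the difference between the sort effects was -1.80, called in limma's paired fit (adjusted p 0.0418) and not in the unpaired fit (adjusted p 0.0865).

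Cdh13 was lower in the positive array of every Pitx3 pair and higher in that of every Nurr1 pair. The difference between these sort effects was -0.37, with an interaction adjusted p of 1.0 without pairs and 0.999 with pairs. Cdh22 had the same pattern of pairs, with a difference of -0.51 and the same adjusted p of 1.0 and 0.999. Neither interaction passed the test, and the Cdh13 pairs were read on its brightest probe. Other probes of Cdh13 differed by -0.16 and 0.04 in the Pitx3 sort, so the pattern is given for the brightest probe only.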

How the results depend on the processing

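Over 21 results of single genes, all 543 values under alternatives kept the sign of the reported value. Apart from the Pcdh20 difference between sort effects, these results were comparisons of groups that did not overlap. For such groups, leaving out an array could not turn the sign, so the kept sign is no test of stability in those settings. Of the 543 values, 515 stayed on the same side of the threshold, 21 lost the call and 7 gained it. In the deposited log2 table the Pcdh7 difference in the Pitx3 sort was -0.30. The cause of these changes was not tested.

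Of the 39 genes, 1 was called in the Pitx3 sort. With the replicate block, which uses the pairing, the number was 3, and it was 0 with the deposited log2 table, with no filter on dim probes and with only the arrays compared. Between Pitx3 positive and Hes5 positive cells 2 were called, against 1 under a stricter filter, where Pcdhb8 was not tested, and 0 with only the arrays compared. For the difference between the Pitx3 and Hes5 sort effects the number was 0, and 1 with the replicate block. The block changed no other call of these genes.

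With 1 array left out, the number called ranged from 0 to 1 in the Hes5 sort, the Pitx3 sort and the Pitx3 minus Hes5 difference, from 0 to 3 between Pitx3 positive and Hes5 positive cells, and was 0 throughout in the other 5 comparisons. With the block and 1 pair left out, an alternative chosen after seeing the data, it ranged from 0 to 4 in the Hes5 sort (4 without Hes5 pair 2), from 0 to 5 in the Nurr1 sort (5 without Hes5 pair 1, 2 without Hes5 pair 2) and from 0 to 4 in the Pitx3 sort (4 without Hes5 pair 1, 3 without Hes5 pair 2 or Nurr1 pair 1 or 2, 2 without Hes5 pair 3, Nurr1 pair 3 or Pitx3 pair 1, and 0 without Pitx3 pair 2 or 3). It ranged from 0 to 1 in the Nurr1 minus Hes5 difference and from 0 to 4 in the Pitx3 minus Hes5 difference.

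With 3 arrays a group and 12 genes above background on 3 to 8 arrays, signal over background limits what can be said of the dim members.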
